A study of Mus musculus with 9 samples.

Results

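The nuclear genes for the subunits of oxidative phosphorylation were followed in RNA sequencing data of mouse kidney cortex. A gene was taken as a member when its name began with Ndufa, Ndufb, Ndufc, Ndufs or Ndufv (complex I), Uqcr (complex III), Cox4i, Cox5, Cox6, Cox7 or Cox8 (complex IV) or Atp5 (ATP synthase), or was Cyc1, Sdha, Sdhb, Sdhc or Sdhd. Assembly factors named Ndufaf and pseudogenes named with -ps were left out. This gave 84 members of 18657 genes in the table, and all 84 were among the 14437 genes with a mean value of at least 10, which were the genes tested. The rule used names and not values, though it was set with earlier results of these data known. The study asked how deletion of the von Hippel-Lindau gene (Vhl) in the proximal tubule, which stabilizes hypoxia-inducible factor (HIF), alters the diabetic kidney. It found this deletion to be partial in the early proximal tubule. It compared 4 groups of male mice on a mixed C57BL/6/FVB background, all of them carrying floxed Vhl alleles (Vhl fl/fl). VHLΔPT/STZ mice carried Cre under the Sglt2 promoter, which is active in the early proximal tubule, and received streptozotocin (STZ), a toxin of pancreatic beta cells that causes type 1 diabetes. VHLΔPT mice carried the same Cre and received citrate buffer. Mice of the con/STZ group had no Cre and received STZ, and con mice had no Cre and received buffer; the labels call both of these WT. STZ was given at 100 mg/kg on 2 days at 12 weeks of age, and the mice were followed for 10 weeks. There were 2 libraries each of VHLΔPT/STZ, VHLΔPT and con/STZ and 3 of con, each from pooled RNA of 2 mice, and every error and p-value below measures the spread between such pools. Whole tissue was sequenced, and fewer cells of a type cannot be told apart from less RNA per cell.

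Oxidative phosphorylation takes place in the inner mitochondrial membrane. Complex I oxidizes NADH and complex II oxidizes succinate, both pass electrons to ubiquinone, complex III hands them on to cytochrome c and complex IV hands them to oxygen. The proton gradient built by complexes I, III and IV drives ATP synthase. Proximal tubule cells are packed with mitochondria and rely on this pathway for transport, and HIF is known in other settings to shift cells from respiration towards glycolysis. A few members are subunits only by name. Ndufa4 is now counted with complex IV, Cox7a2l helps to join complexes into supercomplexes, and Atp5s and Atp5sl are related proteins outside the ATP synthase core, of which Atp5sl (also Dmac2) takes part in building complex I. The subunits encoded by mitochondrial DNA were not analysed here.

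Values were quantile normalized gene counts, called normalized counts below. This scaling gave every library nearly the same total, between 21951722 and 21952234, so the read depth behind a value is not known and no counting error can be given. Within the highest genes the scaling leaves only ranks: Atp5b had exactly 94054 in VHLΔPT/STZ 1 and in con 2, and 110088 in VHLΔPT/STZ 2 and in con 3. Vhl itself, counted over all exons and all cells, ranged from 516 to 516.5 in VHLΔPT/STZ, 434 to 469.8 in VHLΔPT, 501 to 527 in con/STZ and 522 to 555 in con. Library con/STZ 2 goes against its label, since it had 3205 normalized counts of Xist, the RNA of the inactive X chromosome in females, against 0 to 6.22 in the other libraries. It also had 498 of Ddx3y, a gene of the Y chromosome, against 479.5 to 1005 in the others. The pool was thus not of female RNA alone. Library con 2 held the most signs of fat, with 4957 normalized counts summed over Adipoq, Cidea, Plin1 and Ucp1. This sum was 50.6 in con 1 and 1142 in con 3. It was 303 and 1196 in VHLΔPT/STZ, 1065 and 1077 in VHLΔPT, and 133 and 348 in con/STZ. VHLΔPT/STZ 1 and 2 also differed in summed markers of urothelium, at 60.7 and 1775, and of principal cells, at 15721 and 27695. Con 3 stood apart for the members themselves. The counts and medians of the members against con are given with and without con/STZ 2, con 2 and con 3, where these enter the comparison.

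Together the members took from 2.62 to 3.67% of each library's total. Per kilobase of merged exons, the highest member was Atp5b, the catalytic beta subunit of ATP synthase, with a mean of 23606 normalized counts over the 9 libraries. Cox8a followed with 22359.8, and Atp5a1, the alpha subunit, with 21920.3. Among the other complexes the highest per kilobase were Uqcr10 of complex III with 13854, Ndufa4 with 10251, and Sdhd, a membrane anchor of complex II, with 7245. Uqcr10 itself had 7626 and 9432 normalized counts in VHLΔPT/STZ, 6888 and 6729.8 in VHLΔPT, 8218 and 7430.1 in con/STZ, and 7647, 8444 and 10405 in con. Ndufa4 is kept with complex I here by its name, and the highest after it in complex I was Ndufa1 with 8452. In the NADH-oxidizing N module the highest was Ndufa2 with 5665. The lowest per kilobase were Cox4i2 with 17.2, Ndufa4l2 with 86.9 and Cox6b2 with 104. All members were protein coding and lay on 19 chromosomes, with 3 on the X chromosome. Most were short: the median coding length was 426 bases, against 1404 over the genes tested, and 78 of the 84 lay under that value.

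**Figure D1:**
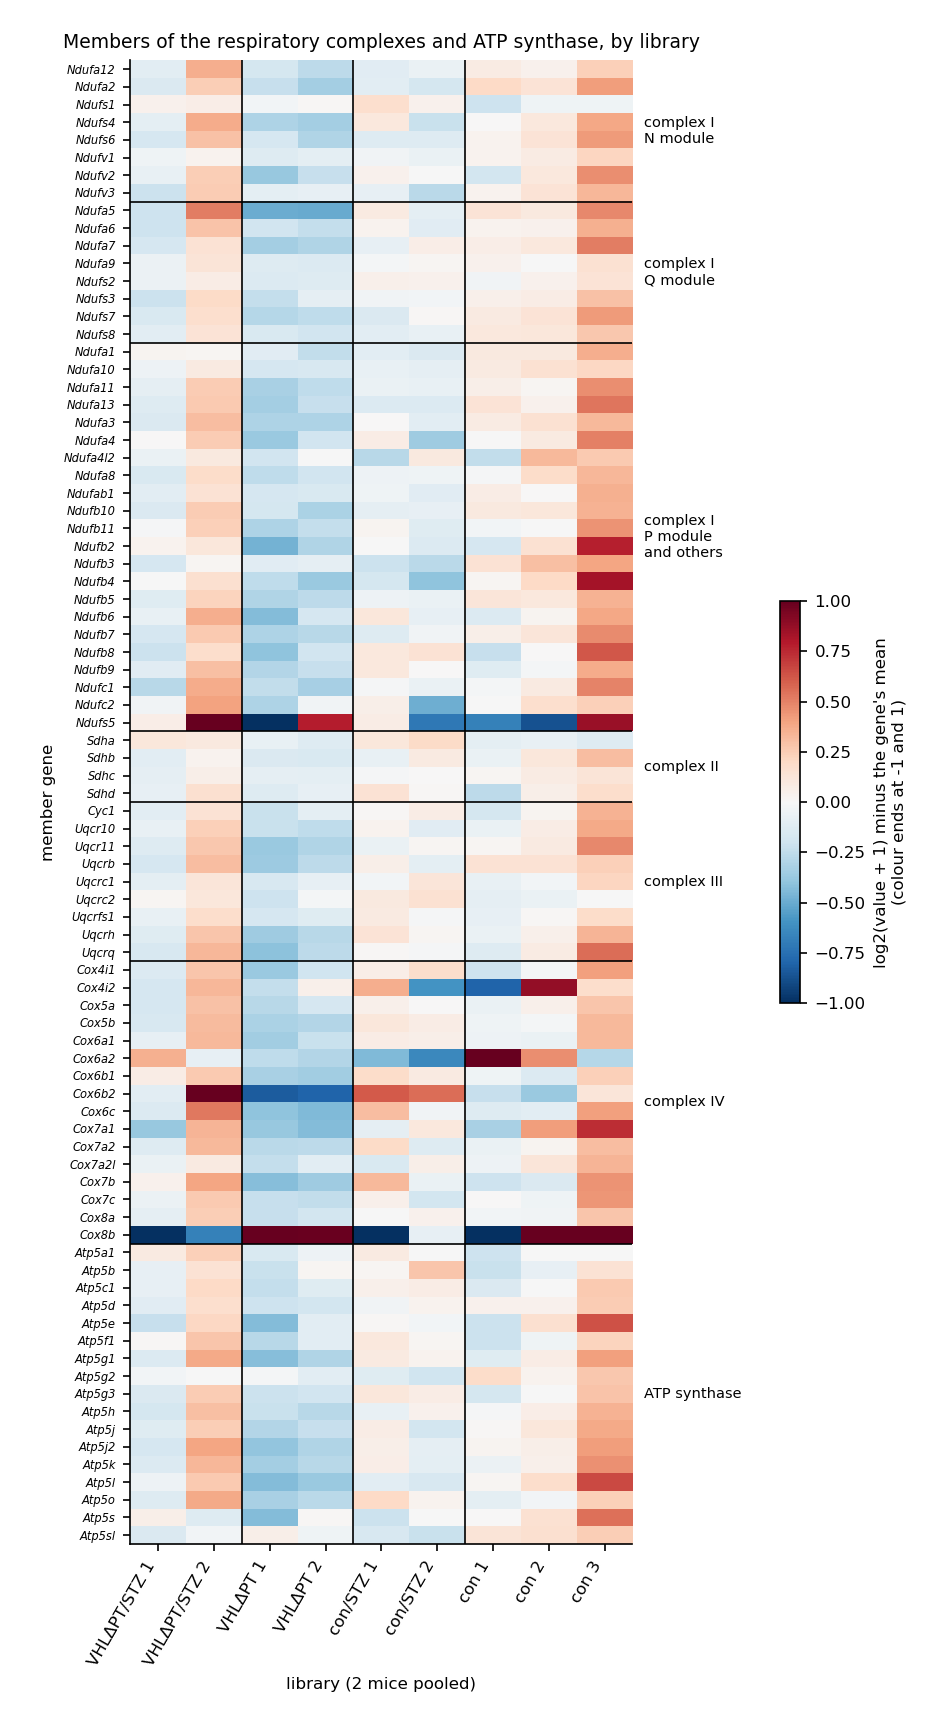
Each of the 84 members (rows, by complex) in each of the 9 libraries (columns, by group); colour is the member's log2(value + 1) minus its own mean over the libraries. The columns of con 3 and VHLΔPT/STZ 2 are red and those of VHLΔPT 1 and 2 blue in nearly every complex, while Sdha and Ndufs1 run against this in con 3.

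The members moved together from library to library (heat map by complex). In the median member, log2(value + 1) minus the gene's own mean was -0.11 in VHLΔPT/STZ 1 and 0.25 in VHLΔPT/STZ 2, -0.26 and -0.23 in VHLΔPT, 0.01 and -0.04 in con/STZ, and -0.03, 0.07 and 0.35 in con. The VHLΔPT libraries were thus the lowest and close to each other, with 2 and 6 of the 84 members above their own mean. The VHLΔPT/STZ libraries lay apart from each other, with 13 and 79 members above their mean, and con 3 stood apart from con 1 and con 2, with 79 above against 36 and 61. The median over all genes tested stayed between -0.01 and 0.01 in each library. The libraries also differed in how their values ran with gene length. The correlation across all genes between a library's deviation and log10 merged exon length was 0.18 and -0.06 in VHLΔPT/STZ, 0.21 and 0.19 in VHLΔPT, 0.26 and 0.27 in con/STZ, and -0.26, -0.19 and -0.46 in con. Genes are not independent replicates, and these values describe the libraries. Con 3 had the most negative of these values and the highest member median.

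**Figure D2:**
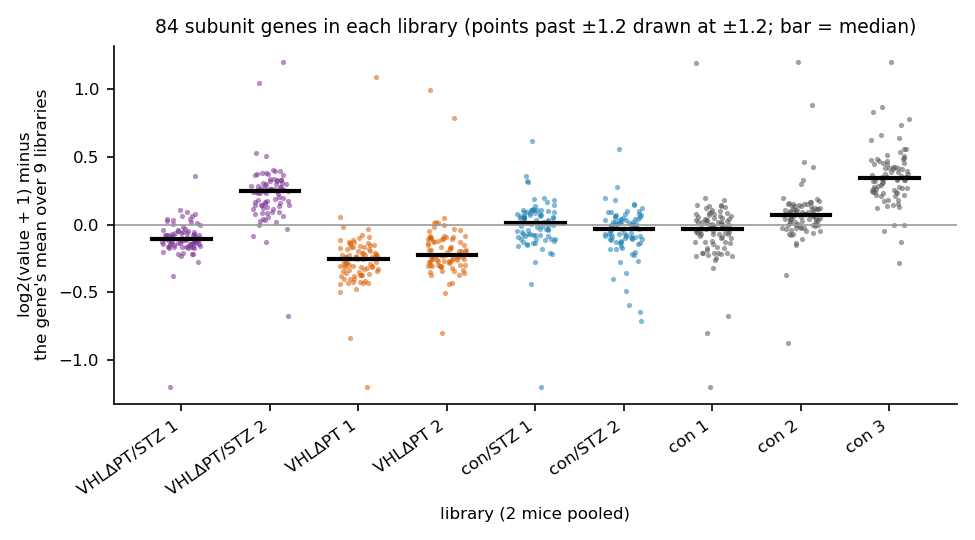
Deviation of each of the 84 members from its own mean over 9 libraries (vertical axis, log2 scale) in each library (horizontal axis), with a bar at the median. The medians of VHLΔPT 1 and 2 are -0.26 and -0.23, those of con 3 and VHLΔPT/STZ 2 are 0.35 and 0.25.

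In VHLΔPT against con, 82 of the 84 members had a lower fitted value, compared with 52.27% of all genes tested. The median change was -0.36 on the log2 scale (22.2% lower), against -0.02 for all genes. None of these changes passed an adjusted p under 0.05 over all genes in limma, where 3.09% of the genes tested passed in either direction. At an unadjusted p under 0.05, 46 members were lower (13.2% of all genes) and 0 were higher. In 66 members both VHLΔPT libraries lay below all 3 con libraries, which 24.8% of all genes did. By complex, the median was -0.40 for the 38 genes of complex I, -0.13 for the 4 of complex II, -0.36 for the 9 of complex III, -0.36 for the 16 of complex IV and -0.33 for the 17 of ATP synthase. Without con 3 the median was -0.25, with 79 members lower and 21 of them at an unadjusted p under 0.05. Without con 2 it was -0.42, with 79 lower and 40 of them at an unadjusted p under 0.05. The count that passed was 16 with library weights. The share of all genes is not given without con 3, without con 2 or with library weights, so these counts cannot be set against it.

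The 5 members with the smallest p in VHLΔPT were all parts of complex I or of ATP synthase. Ndufa2, an accessory subunit of the N module, had 2725 and 2526 normalized counts in VHLΔPT, against 3666, 3509.5 and 4275 in con (log2 change -0.54, standard error (SE) 0.13, adjusted p = 0.0582, limma). Ndufa5, an accessory subunit of the Q module where ubiquinone is reduced, had 2020.3 and 2010.2, against 3131, 3042 and 3975 in con (-0.74, SE 0.20, adjusted p = 0.0695). Neither gene's groups overlapped, and con 3 was the highest con library in both. Atp5l, the g subunit in the membrane part of ATP synthase, had 578 and 602 in VHLΔPT, against 791, 880.4 and 1231 in con (-0.69, SE 0.18, adjusted p = 0.066). Ndufb3 and Ndufb5 belong to the membrane arm of complex I that pumps protons. Ndufb5 had 3519 and 3603 in VHLΔPT, against 4704, 4666 and 5517 in con (-0.47, SE 0.12, adjusted p = 0.0615). Ndufs1, the iron-sulfur subunit of the N module and with 2181 coding bases the longest member, and Cox8b were the 2 members with a fitted value above con. Ndufs1 had 8633 and 8879.7 in VHLΔPT, against 7615, 8531 and 8531 in con (0.09 ± 0.09, standard error, with an adjusted p of 0.554). In these values every VHLΔPT library was above every con library, by a small margin.

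The size of the change ran with the length of the gene. In the 28 members with the shortest coding sequence (156 to 324 bases) the median change in VHLΔPT was -0.46, in the middle 28 it was -0.37 and in the longest 28 (525 to 2181 bases) it was -0.24. Across the 84 members the correlation of the change with log10 coding length was 0.56, and across all genes with a coding length it was 0.47; these are descriptions over genes of the same libraries. The shortest 10% of all genes tested, with a median coding length of 396 bases, had a median change of -0.33, close to that of the members. In con/STZ the same genes had a median of -0.34, and the members, at -0.18, lay above it. With the trend on merged exon length removed from each library, the median of the members was -0.10 in VHLΔPT, with 69 lower. Of these, 13 were at an unadjusted p under 0.05 (9.91% of all genes). The change of the members then correlated with log10 merged exon length at -0.47, against 0.15 before. With the trend on coding length removed the median was -0.13, with 75 lower and 10 at an unadjusted p under 0.05. The share of all genes is not given for the coding length setting. The part of gene length in the lower members was not tested beyond these values. The summed normalized counts of 8 proximal tubule markers, none of them at 0, ranged from 303072 to 352247 in VHLΔPT, against 269622 to 296580 in con. The sum was thus higher in both VHLΔPT libraries, while most members were lower. A few high genes can set such a sum, and the markers are not given singly. Of 14 marker lists, 3 lay above con without overlap in VHLΔPT and 1 below. The others above were thick ascending limb, at 82570 to 106669 against 70615 to 79752 in con, and endothelium, at 8117 to 9094 against 6980 to 7797 in con. The macrophage markers lay below, at 2758 to 2874 against 2972 to 3498 in con. Their part in the members' values was not tested.

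**Figure D3:**
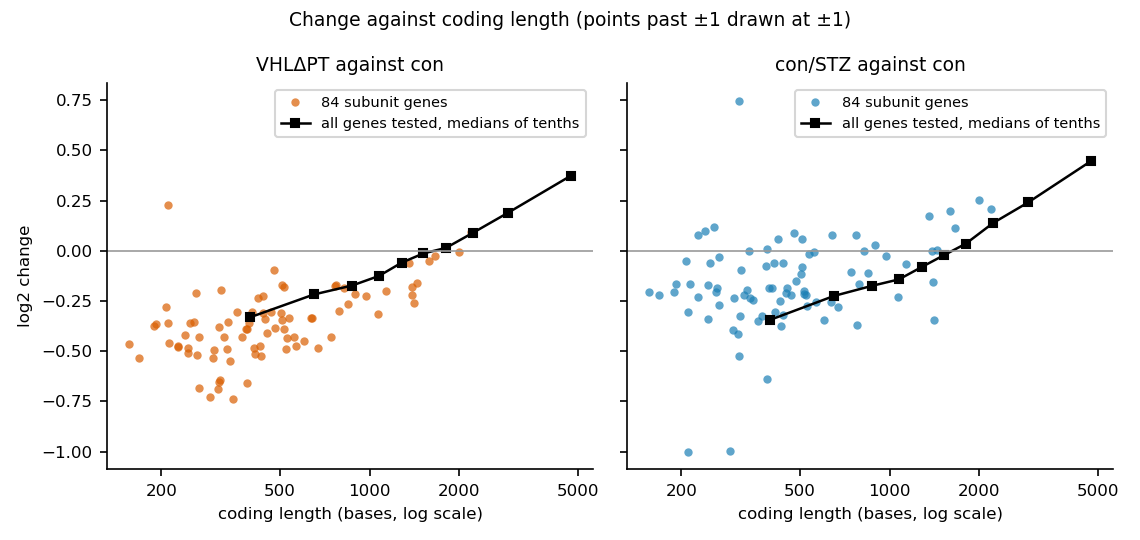
Fitted log2 change (vertical axis) of the 84 members (points) against coding length in bases (horizontal axis, log scale) in VHLΔPT and in con/STZ against con, with black squares at the medians of 10 length bins of all genes tested. The shortest bin lies at -0.33 in VHLΔPT and -0.34 in con/STZ, and the members' medians are -0.36 and -0.18.

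In con/STZ against con, 66 of the 84 members had a lower fitted value and the median change was -0.18, against -0.02 for all genes tested. A total of 3 members fell and 0 rose (adjusted p under 0.05, limma), whereas 14.1% of all genes fell and 14.1% rose. At an unadjusted p under 0.05, 12 members were lower, compared with 21.6% of all genes. In 30 members both con/STZ libraries lay below all con libraries, which held for 30.0% of all genes. The complexes differed in their medians, which were -0.23 for complex I, 0.00 for complex II, -0.03 for complex III, -0.06 for complex IV and -0.15 for ATP synthase; these differences were not tested. In complex I, 37 of 38 members had a lower fitted value, with Ndufs1 as the exception.

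Ndufb3 (ENSMUSG00000026032, GRCm38 chromosome 1 from 58586384 to 58595964) had 2054 and 1977 normalized counts in con/STZ, against 2631, 2933 and 3138 in con. It fell by 0.52 on the log2 scale (SE 0.10, adjusted p = 0.00784, limma), and the groups did not overlap. It was also at 2125 and 2425 in VHLΔPT/STZ (-0.35, adjusted p = 0.0887) and at 2208 and 2245 in VHLΔPT (-0.38, adjusted p = 0.0676), so that con held the highest libraries of all. Atp5sl (ENSMUSG00000057229, chromosome 7 from 25619414 to 25625551) had 1446 and 1379.7 in con/STZ, against 1761, 1806 and 1915 in con. It fell by 0.37 (SE 0.09, adjusted p = 0.0145). Atp5g2 (ENSMUSG00000062683, chromosome 15 from 102662864 to 102672352), a gene for the c subunit whose ring turns in the membrane, had 722 and 684 in con/STZ, against 889.7, 803 and 945 in con. It fell by 0.32 (SE 0.10, adjusted p = 0.0399). Every stretch of 50 bases in the Atp5g2 transcript that was searched is also found in transcripts of other annotated genes, so its count could depend on how shared reads were assigned. That transcript has 441 bases, while the merged exons of the gene have 1675. Without con/STZ 2 no member passed. Ndufb3 then stood at an adjusted p of 0.0608 in limma, 2 members were lower at an unadjusted p under 0.05 and the median was -0.11. Without con/STZ 1 only Ndufb3 passed. Without con 3 the median was -0.05 with 51 members lower, and 3 members passed. Without con 2 it was -0.20 with 69 lower, and 3 passed.

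Next in order of p, Ndufa1, a small subunit of the membrane arm, had 3273 and 3189 in con/STZ, against 3755, 3765 and 4517 in con (log2 change -0.31, adjusted p = 0.0521, limma). Ndufa2 had 2964 and 2830.1, against 3666, 3509.5 and 4275 in con (-0.39, adjusted p = 0.053). Ndufb4 had 523 and 447, against 599, 678 and 1051 in con (-0.64, adjusted p = 0.0537). The values of con/STZ lay below those of con in these members too. At the other end, Sdha, the flavoprotein of complex II that oxidizes succinate, had 24795 and 26267 in con/STZ, against 21487, 21865 and 20983 in con (0.25, SE 0.10, adjusted p = 0.0808). Ndufs1 had 9901 and 9066, against 7615, 8531 and 8531 in con (0.21, adjusted p = 0.124). Uqcrc2, a core protein of complex III, had 14223 and 14788, against 12516, 12733 and 13299 in con (0.18, adjusted p = 0.204). The con/STZ values of these 3 were above all con values, and Sdha and Ndufs1 have the longest coding sequences of the list. Atp5b had 100610.0 and 120384, against 85143, 94054 and 110088 in con (0.20, adjusted p = 0.447), and its groups overlapped. The sign of the list's median was the opposite with gene length taken into account. With the trend on merged exon length removed, the median in con/STZ was 0.14. No member fell and 8 of the 84 rose, near the 8.66% of all genes that rose. Among the 8 were Cox6b1 at 0.61 (adjusted p = 0.00628, limma) and Cox6b2 at 1.11 (adjusted p = 0.0248, limma). Ndufb3 then stood at -0.06 (adjusted p = 0.67, limma) and Atp5sl at -0.24 (adjusted p = 0.059, limma). This correction left a trend among the members, whose change correlated with log10 merged exon length at -0.37, against 0.30 before. With the trend on coding length removed the median was 0.13 and 9 members rose, for which the share of all genes is not given. Markers of distal segments moved with the same comparison. The sum of 4 distal convoluted tubule markers, none at 0, was 49250.5 to 50536.7 in con/STZ, against 17575.7 to 23595.7 in con, and that of 5 thick ascending limb markers, none at 0, was 117466 to 130276, against 70614.8 to 79751.9. In all, 7 of the 14 marker lists lay above con without overlap in con/STZ and 2 below, those of macrophages and of T and B cells. Their part in the members' values was not tested.

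**Figure D4:**
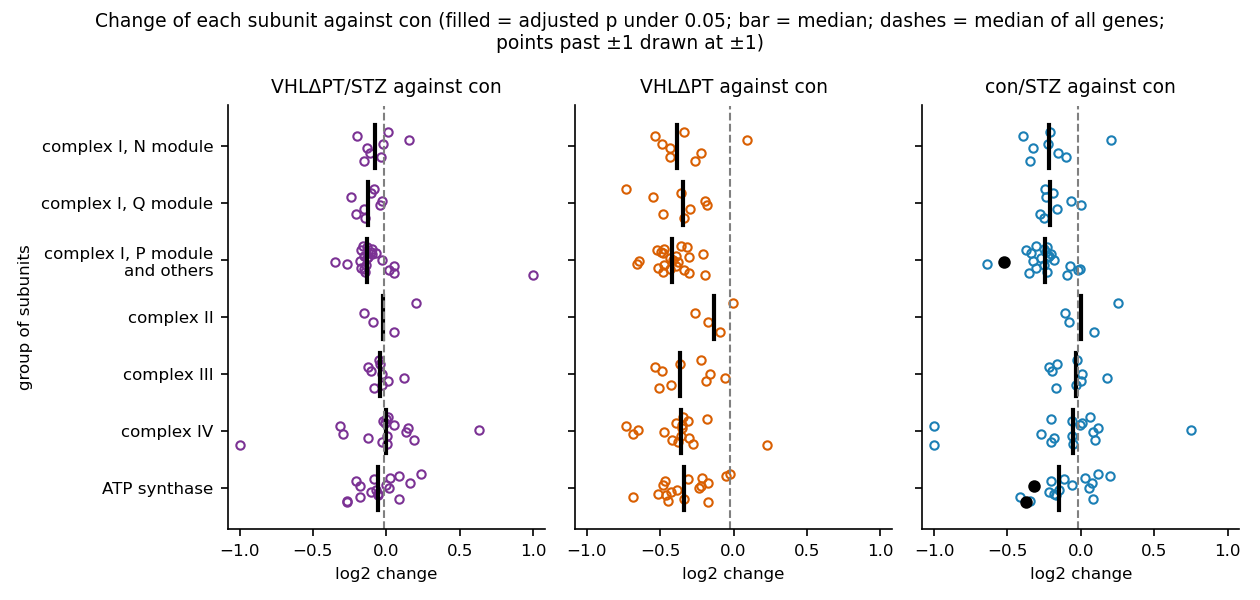
Fitted log2 change of each member (points; horizontal axis) by complex (vertical axis) in VHLΔPT/STZ, VHLΔPT and con/STZ, each against con; filled points passed an adjusted p under 0.05, bars are medians of the group and the dashed line is the median of all genes tested. All 3 filled points are in con/STZ, and the bars lie furthest left in VHLΔPT, where complex I has a median of -0.40 and complex II of -0.13.

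Promoters are shown for members at both ends of these comparisons, so that the letters upstream of genes that moved, or stood apart, can be read beside their values. They are 300 bases of RefSeq on GRCm38.p6, from 250 before to 50 after the annotated start and read along the gene's strand, with capitals at matches to binding motifs of NRF1 (GCGC, any 2 bases, GCGC), ETS factors such as GABP (CCGGAAG), YY1 (AAGATGGC) and the estrogen-related receptors (AAGGTCA) on either strand. Ndufb3 (chr1:58586147-58586446, plus strand) fell in con/STZ and holds no match to these motifs. Atp5g2 (chr15:102670998-102671297, minus strand), which fell as well, holds 1 NRF1 match, and Ndufb4 (chr16:37654319-37654618, minus strand) holds 3 NRF1 matches and 1 of the estrogen-related receptors. Atp5l (chr9:44920693-44920992, minus strand) was among the lowest in VHLΔPT and holds 2 ETS matches and 1 of the estrogen-related receptors. Sdha (chr13:74350191-74350490, minus strand), at the upper end in con/STZ, holds 3 NRF1 matches.
Ndufb3: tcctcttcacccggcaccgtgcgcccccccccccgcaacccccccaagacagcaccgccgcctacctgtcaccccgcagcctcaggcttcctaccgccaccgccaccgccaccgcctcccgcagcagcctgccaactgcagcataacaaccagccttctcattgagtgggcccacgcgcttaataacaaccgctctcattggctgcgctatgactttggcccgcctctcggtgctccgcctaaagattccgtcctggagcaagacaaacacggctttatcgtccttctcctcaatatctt
Atp5g2: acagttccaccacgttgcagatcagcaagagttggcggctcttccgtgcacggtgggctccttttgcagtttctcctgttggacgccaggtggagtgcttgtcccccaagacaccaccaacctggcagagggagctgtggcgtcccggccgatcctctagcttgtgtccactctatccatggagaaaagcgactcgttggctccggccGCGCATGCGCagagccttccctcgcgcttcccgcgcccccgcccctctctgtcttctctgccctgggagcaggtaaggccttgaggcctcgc
Ndufb4: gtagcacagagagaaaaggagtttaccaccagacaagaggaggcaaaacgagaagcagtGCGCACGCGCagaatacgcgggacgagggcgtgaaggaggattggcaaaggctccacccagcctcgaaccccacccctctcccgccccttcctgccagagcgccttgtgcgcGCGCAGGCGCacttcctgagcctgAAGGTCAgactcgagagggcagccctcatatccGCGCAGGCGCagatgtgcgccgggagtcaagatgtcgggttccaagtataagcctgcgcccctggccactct
Atp5l: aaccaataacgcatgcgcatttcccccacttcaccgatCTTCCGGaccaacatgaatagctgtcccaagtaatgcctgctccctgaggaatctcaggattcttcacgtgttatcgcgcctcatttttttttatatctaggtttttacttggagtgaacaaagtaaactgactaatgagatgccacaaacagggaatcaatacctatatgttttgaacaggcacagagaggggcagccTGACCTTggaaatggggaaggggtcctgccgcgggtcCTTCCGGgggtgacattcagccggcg
Sdha: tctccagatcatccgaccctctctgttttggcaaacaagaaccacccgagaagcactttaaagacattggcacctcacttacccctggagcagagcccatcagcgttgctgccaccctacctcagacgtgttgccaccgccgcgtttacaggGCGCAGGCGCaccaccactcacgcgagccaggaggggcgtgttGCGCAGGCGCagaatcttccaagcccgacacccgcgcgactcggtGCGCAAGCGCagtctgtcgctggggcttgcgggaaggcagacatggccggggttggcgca
A promoter window was found for 69 of the 84 members. The NRF1 motif occurred in 27.5% of them, against 13.9% of the tested genes with a window, the YY1 motif in 15.9% against 4.92%, and the motif of the estrogen-related receptors in 11.6% against 4.19%. The ETS motif was found in 23.2% against 18.4%. At least 1 of these 4 motifs was present in 59.4% of the members and 35.3% of the tested genes. The core of the HIF response element, ACGTG, was present in 27.5% of the members and 28.4% of the tested genes. A match describes letters and is not a binding site.

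In VHLΔPT/STZ against con, 60 of the 84 members had a lower fitted value, the median change was -0.08 and 0 members passed in either direction, where 1.4% of all genes did (limma). At an unadjusted p under 0.05, 2 members were lower, Ndufb3 and Atp5sl, compared with 12.2% of all genes. Atp5sl had 1457 and 1578 normalized counts in VHLΔPT/STZ, against 1761, 1806 and 1915 in con (log2 change -0.27, adjusted p = 0.108). Its groups did not overlap. The values of Atp5g2 were 768 and 782 in VHLΔPT/STZ, against 889.7, 803 and 945 in con (-0.18, adjusted p = 0.289). Ndufa7, an accessory subunit of the Q module, had 1876 and 2331, against 2206, 2266 and 3012 in con (-0.24, adjusted p = 0.349), and Ndufa1 had 3588 and 3556, against 3755, 3765 and 4517 in con (-0.16, adjusted p = 0.35). Among members with a higher fitted value, the smallest p was that of Sdha, with 24795 and 24563 in VHLΔPT/STZ, against 21487, 21865 and 20983 in con (0.20, adjusted p = 0.229), followed by Cox6b2, with 97.4 and 218, against 89.4, 80.9 and 114 in con (0.63, adjusted p = 0.242). Ndufs1 had 9066 and 9219, against 7615, 8531 and 8531 in con (0.15, adjusted p = 0.33). Atp5a1 had 72919 and 80665, against 59262, 68277 and 68277 in con (0.24, adjusted p = 0.333). Sdha, Ndufs1 and Atp5a1 had both VHLΔPT/STZ libraries above all con libraries. Ndufs5, an intermembrane space subunit of complex I, had 192 and 789 in VHLΔPT/STZ, against 115, 99.7 and 335 in con (1.31, SE 0.83, adjusted p = 0.355). Its libraries scattered in every group, and 41.2% of the 50-base stretches of its transcript are shared with other annotated genes. Because VHLΔPT/STZ 1 and 2 lay so far apart, the sign of the list's median was set by which was used: it was -0.22 with VHLΔPT/STZ 1 alone and 0.10 with VHLΔPT/STZ 2 alone. It was 0.04 without con 3, with 32 members lower, -0.11 without con 2, with 65 lower, and 0.10 with the trend on merged exon length removed.

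**Figure D5:**
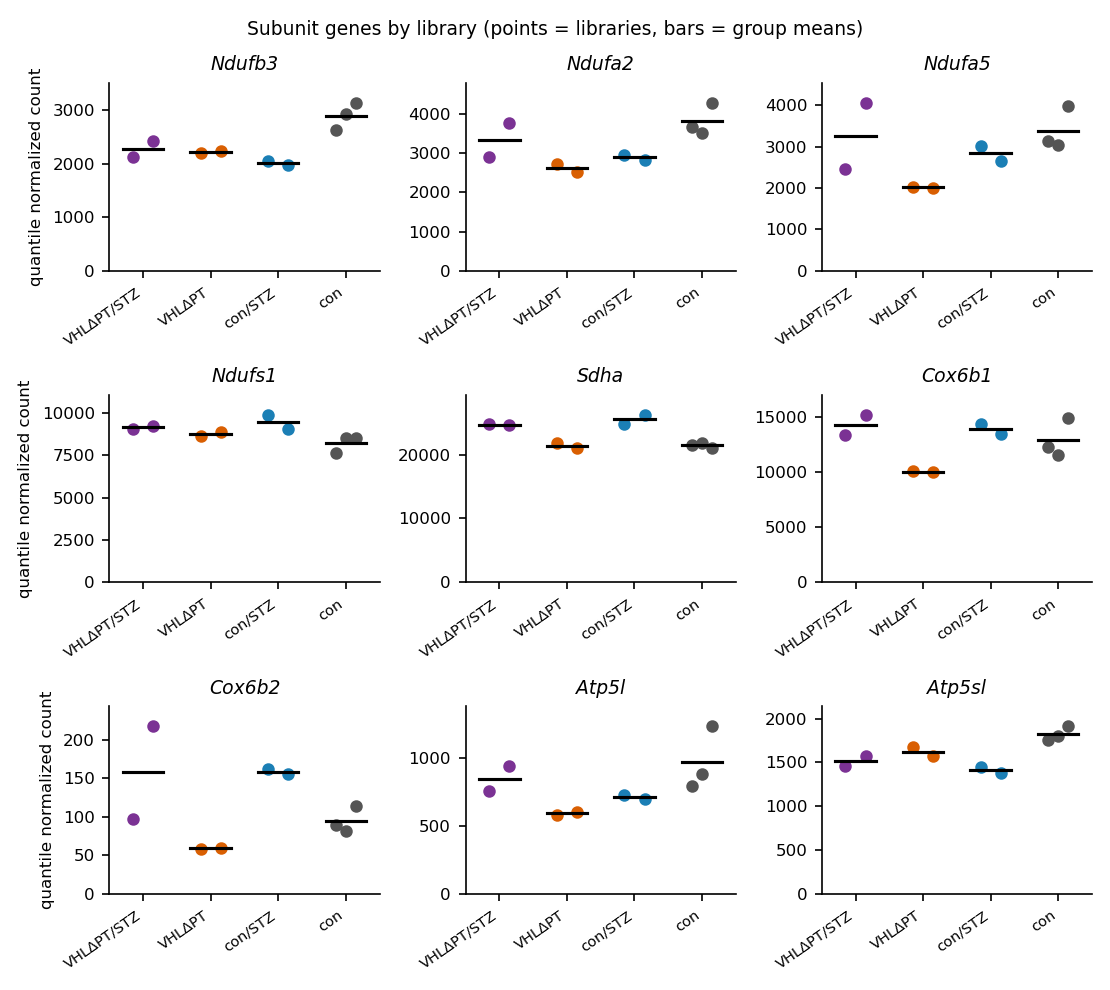
Normalized counts (vertical axes, from 0) of 9 members in each library (points) of VHLΔPT/STZ, VHLΔPT, con/STZ and con (horizontal axes), with bars at group means. Ndufb3 is highest in con, Sdha has its 4 highest libraries in the STZ groups, and Cox6b2 and Cox6b1 are lowest in VHLΔPT.

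The other comparisons ask what the deletion did among diabetic mice and what STZ did among mice with the deletion; they share libraries with those above. In VHLΔPT/STZ against con/STZ, the median of the members was 0.08, with 64 higher. Of the members 0 passed (0.00693% of all genes in either direction), and 0 were at an unadjusted p under 0.05 (limma). The median was 0.05 without con/STZ 2, with 63 higher, but -0.09 without VHLΔPT/STZ 2, with 65 lower. With the trend on merged exon length removed it was -0.06, with 58 lower. With that on coding length removed it was also -0.06, with 61 lower. The sign of this median thus depended on the library kept and on the length correction. In VHLΔPT/STZ against VHLΔPT, 82 of the 84 members had a higher fitted value, with a median of 0.32 against 0.00 for all genes, and 0 passed (0.00693% of all genes did). At an unadjusted p under 0.05, 20 members were higher (5.15% of all genes), and in 64 members both VHLΔPT/STZ libraries lay above both VHLΔPT libraries (23.6% of all genes). The smallest p here belonged to the cytochrome c oxidase genes Cox6b2 and Cox6b1, which encode a subunit at the contact of the complex IV dimer. Cox6b1 had 13337 and 15211 normalized counts in VHLΔPT/STZ, against 10124 and 9959.9 in VHLΔPT (log2 change 0.50, SE 0.14, adjusted p = 0.375, limma). Its groups did not overlap. Ndufa5 had 2467 and 4052, against 2020.3 and 2010.2 in VHLΔPT (0.65, adjusted p = 0.382). With VHLΔPT/STZ 1 alone the median of the list in this comparison was 0.14, and with VHLΔPT/STZ 2 alone it was 0.50, where Ndufa5 and Cox6b2 passed. With 1 library left in the group, its spread was borrowed from the remaining groups.

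The interaction of genotype and STZ tests whether the change with STZ differed between mice with and without the deletion. It was above 0 for 81 of the 84 members, with a median of 0.46 against 0.03 for all genes, and 0 passed (1.72% of all genes did, limma). At an unadjusted p under 0.05, 31 members were higher (12.8% of all genes), 23 of them in complex I. The smallest p was that of Ndufa2 at 0.73 (SE 0.19, adjusted p = 0.0731) and the next that of Ndufb3 at 0.55 (SE 0.15, adjusted p = 0.0739). Complex I had a median of 0.55 and complex II of 0.11. The median was 0.05 with the trend on merged exon length removed and 0.07 with that on coding length removed, and Ndufb3 then stood at 0.00 with the first of these. Without VHLΔPT/STZ 2 the median was 0.28. Without VHLΔPT/STZ 1 it was 0.64, so its size rested on which diabetic library with the deletion was kept.

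Several subunits of complex IV and the c subunit of ATP synthase are encoded by sets of genes used in different tissues. The usual isoform was by far the higher in these libraries, per kilobase of merged exons over the 9 libraries: Cox4i1 was 754 times as high as Cox4i2, an isoform known from lung and induced by HIF in other cells. Cox6a1 was 85.3 times as high as the muscle isoform Cox6a2, Cox6b1 174 times as high as the testis isoform Cox6b2, and Cox7a2 17.1 times as high as the muscle isoform Cox7a1. For the c subunit, whose genes differ in the part that targets it to mitochondria, Atp5g3 was 8.19 times as high as Atp5g1 and 18.6 times as high as Atp5g2. These ratios depend on the length used. The merged exons have 4912 bases in Atp5g1 and 2181 in Atp5g3, while the coding lengths are 408 and 423. The count of Atp5g2 could also depend on how shared reads were assigned. Ndufa4 was 118 times as high as Ndufa4l2, which is a known target of HIF. Normalized counts of Ndufa4l2 were 90.1 and 101 in VHLΔPT/STZ, 82.3 and 94.1 in VHLΔPT, 77.6 and 101 in con/STZ, and 79.2, 118 and 113 in con. Those of Cox4i2 were 11.2 and 16.3 in VHLΔPT/STZ, 10.7 and 13.2 in VHLΔPT, 16.7 and 8.11 in con/STZ, and 6.89, 24.3 and 14.6 in con. For both HIF targets the groups overlapped, and in VHLΔPT against con their log2 changes were -0.21 (SE 0.22, adjusted p = 0.58) and -0.18 (SE 0.54, adjusted p = 0.856, limma). The paper reports only partial loss of Vhl in the targeted cells, so these values mix cells with and without it.

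The abundant isoforms are given first. Cox4i1 had 18006 and 24079 normalized counts in VHLΔPT/STZ, 15336 and 17259 in VHLΔPT, 20711 and 22449 in con/STZ, and 17158, 19526 and 26408 in con. Cox6a1 had 10539.8 and 13934 in VHLΔPT/STZ, 8763 and 9523 in VHLΔPT, 11711 and 11578 in con/STZ, and 10751, 10612 and 13934 in con. Cox6b1 had 13337 and 15211 in VHLΔPT/STZ, 10124 and 9959.9 in VHLΔPT, 14362 and 13492 in con/STZ, and 12317, 11511 and 14898 in con. In each of these 3 the lowest group mean was that of VHLΔPT. Cox7a2 had 8038 and 11046 in VHLΔPT/STZ, 7291 and 7345 in VHLΔPT, 10059.7 and 8038 in con/STZ, and 8425, 8989.9 and 10919.9 in con. Cox7a2l had 2252 and 2505 in VHLΔPT/STZ, 2000.4 and 2192 in VHLΔPT, 2121 and 2449 in con/STZ, and 2278, 2559 and 2978 in con. Cox7b had 7453 and 9497 in VHLΔPT/STZ, 5380.4 and 5652 in VHLΔPT, 9043 and 6896 in con/STZ, and 6253, 6527 and 9872 in con. The VHLΔPT libraries lay below all con libraries in Cox7a2, Cox7a2l and Cox7b. Cox8a had 12942 and 16286 in VHLΔPT/STZ, 11692 and 12139 in VHLΔPT, 13735 and 14157 in con/STZ, and 13492, 13435 and 16689 in con. Ndufa4 had 13934 and 16556 in VHLΔPT/STZ, 10734 and 12166 in VHLΔPT, 14682 and 10849.8 in con/STZ, and 13889, 14846 and 19754 in con. Among the c subunit genes, Atp5g1 had 4698 and 6729.8 in VHLΔPT/STZ, 3857 and 4198 in VHLΔPT, 5492 and 5292 in con/STZ, and 4758, 5448 and 6869 in con. Atp5g3 had 17158 and 22667 in VHLΔPT/STZ, 16385 and 16624 in VHLΔPT, 20476 and 19974 in con/STZ, and 16835, 18927 and 23085 in con. VHLΔPT was below con in all 4 of these genes without overlap.

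The rarer isoforms varied more than the rest. Cox6b2 had 97.4 and 218 normalized counts in VHLΔPT/STZ, 58.6 and 60 in VHLΔPT, 162 and 155 in con/STZ, and 89.4, 80.9 and 114 in con. VHLΔPT was thus the lowest group and con/STZ lay above con (log2 change 0.75, SE 0.31, adjusted p = 0.10, limma). Cox6a2 had 152 and 112 in VHLΔPT/STZ, 98.8 and 96.2 in VHLΔPT, 86.9 and 75.2 in con/STZ, and 271, 163 and 96.9 in con. The con libraries spread over most of the range here. Cox8b, the isoform of brown fat and muscle, had 16.1 and 26.1 in VHLΔPT/STZ, 90.8 and 84.9 in VHLΔPT, 7.11 and 39.9 in con/STZ, and 12.1, 320.2 and 103 in con. Its fitted change in VHLΔPT was 0.23 (SE 1.16, adjusted p = 0.919, limma). It was 1.27 without con 2, the library with the most signs of fat, and -1.04 without con 1. The fat markers Ucp1, Cidea, Adipoq and Plin1 were likewise highest in con 2, but differed from Cox8b and from each other elsewhere. Ucp1 had 165 and 7.11 in VHLΔPT/STZ, 422 and 238 in VHLΔPT, 9.33 and 88.0 in con/STZ, and 12.1, 2566 and 266 in con. Cidea had 40.1 and 114 in VHLΔPT/STZ, 226 and 241 in VHLΔPT, 18.7 and 37.9 in con/STZ, and 8.11, 821 and 199 in con. Adipoq had 701 and Plin1 374 in VHLΔPT/STZ 2, above both VHLΔPT libraries, while Cox8b had 26.1 there. Their part in the values of Cox8b was not tested. Cox7a1 had 218 and 358 in VHLΔPT/STZ, 217 and 209 in VHLΔPT, 266 and 304 in con/STZ, and 226, 379 and 471 in con, so both VHLΔPT libraries lay below con.

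Complex II, which also serves the citric acid cycle, is the only complex with no subunit in the mitochondrial genome, and it had the smallest median change in VHLΔPT. Sdha overlapped between both groups without STZ, with 21775 and 20983 normalized counts in VHLΔPT, against 21487, 21865 and 20983 in con. In all 4 STZ libraries it was above every library without STZ. Sdhb, the iron-sulfur subunit, had 9351 and 10278 in VHLΔPT/STZ, 9108 and 9066 in VHLΔPT, 9547 and 10698 in con/STZ, and 9595, 10870.4 and 12436 in con. Sdhc, a membrane anchor, had 9151 and 10124 in VHLΔPT/STZ, 9125 and 9093 in VHLΔPT, 9677 and 9758 in con/STZ, and 9872, 10278 and 10664 in con. Both VHLΔPT libraries lay below con in Sdhb and Sdhc. Sdhd, the other anchor, had 8383 and 9937 in VHLΔPT/STZ, 8131 and 8383 in VHLΔPT, 9836 and 8927 in con/STZ, and 7397, 9254 and 10016 in con. Cyc1, the cytochrome c1 of complex III, had 11493 and 13638 in VHLΔPT/STZ, 10612 and 11578 in VHLΔPT, 12436 and 13009.7 in con/STZ, and 10948, 12580.2 and 15716 in con. None of these 5 genes passed in any comparison.

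Genes around the pathway were counted from lists of known function. Of 44 assembly factors measured, which build the complexes but are not part of them, 18 fell and 1 rose in con/STZ (median log2 change -0.36), where 14.1% of all genes fell and 14.1% rose. In the other comparisons 1 fell in VHLΔPT (-0.29) and 0 passed in VHLΔPT/STZ (-0.21, 14 lower and 2 higher at an unadjusted p under 0.05, limma, where 12.2% of all genes were lower). Cox19, which delivers copper to complex IV, was the one that fell in VHLΔPT, with 623.7 and 651 normalized counts there, against 877, 973 and 1018 in con (-0.58, SE 0.11, adjusted p = 0.0366). This call was lost in 13 of 21 alternatives, among them the length correction (adjusted p = 0.0975) and leaving out con 3 (adjusted p = 0.0966, limma), and the adjusted p ranged up to 0.25. In con/STZ the assembly factors that fell were 8 with the trend on merged exon length removed, 6 with that on coding length removed, 4 without con/STZ 2 and 3 without con/STZ 1. Of 13 citric acid cycle genes, 1 rose and 0 fell in con/STZ, where 14.1% of all genes rose and 14.1% fell. It was Ogdh, a subunit of the 2-oxoglutarate dehydrogenase, which rose by 0.52 (adjusted p = 0.0135, limma). The call was lost in 5 of 21 alternatives, among them leaving out con/STZ 1 (adjusted p = 0.0709) or con/STZ 2 (adjusted p = 0.0889) and removing the trend on coding length (adjusted p = 0.145, limma). Of 13 genes for ubiquinone synthesis and other electron inputs, 3 fell in con/STZ (Coq3, Coq4 and Coq5), beside the 14.1% of all genes that fell. Of 13 carriers and import genes 3 fell as well (Timm44, Timm50 and Tomm22). The other Coq, Tomm and Timm genes of these lists did not pass. The counts that fell were 2 and 3 with the trend on merged exon length removed, where 1 carrier or import gene rose. Without con/STZ 1 the counts were 1 and 0, and without con/STZ 2 they were 2 and 0. Among 15 regulators of mitochondrial genes, 5 rose and 0 fell in con/STZ, where 14.1% of all genes rose. With the trend on merged exon length removed 3 rose (8.66% of all genes did) and 1 fell. With that on coding length removed 5 rose and 0 fell. Fewer than 5 rose when either con/STZ library was left out. In VHLΔPT 2 rose and in VHLΔPT/STZ 1 rose, where 3.09% and 1.4% of all genes passed in either direction. Ppargc1a, the coactivator PGC-1α that drives mitochondrial gene expression, had 1618 and 1584 in VHLΔPT/STZ, 1569 and 1620.1 in VHLΔPT, 1984 and 2073 in con/STZ, and 1175, 1155 and 931 in con. It rose by 0.57 in VHLΔPT/STZ (adjusted p = 0.0496), by 0.56 in VHLΔPT (adjusted p = 0.0434) and by 0.91 in con/STZ (adjusted p = 0.00234, limma). The call in con/STZ held in 21 of 21 alternatives, with adjusted p-values from 0.00103 to 0.032. That in VHLΔPT/STZ was lost in 18 of 21, with adjusted p-values up to 0.214, and that in VHLΔPT in 13 of 21, with values up to 0.25 (limma). Beside it 0 subunit genes rose in any of these comparisons, while under the alternatives up to 10 rose in con/STZ and up to 1 in VHLΔPT/STZ. Of 9 HIF targets that act on respiration, 1 rose and 0 fell in con/STZ, where 14.1% of all genes rose. Their median log2 change there was -0.08, with 5 at a lower fitted value. In VHLΔPT it was -0.0008, with 5 lower, and in VHLΔPT/STZ 0.02, with 4 lower. In each of these groups 0 of the 9 passed, where 3.09% and 1.4% of all genes did in either direction. Of the 9, Cox4i2 and Ndufa4l2 are also members. The gene that rose was Pdk1, a kinase that holds pyruvate back from the citric acid cycle. It had 1752 and 1471 normalized counts in con/STZ, against 572, 796 and 915 in con (1.10, SE 0.25, adjusted p = 0.0141, limma). Pdk1 stood at 0.59 in VHLΔPT (adjusted p = 0.167, limma). The call in con/STZ was lost without con/STZ 1 (adjusted p = 0.102), without con/STZ 2 (adjusted p = 0.0585) and with the replicate block and length correction together (adjusted p = 0.0517, limma).

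Reads of 50 bases can fail to tell a gene from its copies or from other genes that share its sequence. The search used 1 transcript of each member, with the longest coding sequence, against both strands of all other gene records. The partners were pseudogenes in part, but also protein coding genes, such as Pdzd9 for Uqcrc2 (24.8%). For Atp5o the first partner was another record of the same name (24.6%). For 37 of the 84 members no stretch of 50 bases of the transcript occurs in another annotated gene, and for 48 the share is under 5%. For 19 it is over 20% and for 6 over 50%: Atp5g2, Atp5l, Ndufa12, Cox7c, Atp5h and Atp5o. The values of these 6 are uncertain to the extent that shared reads were split or dropped. Ndufb3, with 6.72% shared, and Atp5sl, with none, are not in this group.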

How the data were processed

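Kidney cortex RNA was sequenced as 9 libraries in 4 groups, taken from the sample labels. The authors prepared poly(A) libraries, trimmed reads with Trim Galore 0.4, aligned them with STAR 2.5.2b to GRCm38 and counted genes with featureCounts 1.5.2, per the labels and the study's methods. The deposited signal is a gene count that the authors then quantile normalized, with a tool not given in the sources used here. Raw depth is therefore unknown, and a count test could not be run. Columns holding the authors' own fold changes and p-values were not used.

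Values were tested as log2(value + 1) with limma 3.58.1 (R 4.3.3), with a mean-variance trend, 4 group means over all 9 libraries, and Benjamini-Hochberg adjustment over 14437 genes whose mean reached 10. A gene passed at an adjusted p under 0.05, two-sided; fold changes of low genes are understated on this scale. The fit was tested on simulated data. Alternatives were other pseudocounts, filters and scalings, library weights, a replicate block, leaving out libraries, and removing each library's trend on gene length. Per-library values are given for the 5 members with the smallest p in each direction against con, for isoform sets, complex II, Cyc1 and the highest members. Some further members were named after their values were seen. Members and lists were chosen with earlier results of these data known. Promoters came from RefSeq (GRCm38.p6).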

Additional observations from a re-analysis of the deposited data

How the results depend on the processing

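The summary values were recomputed under each alternative, and 336 of 388 stayed the same, while 52 moved. Shares of all genes were taken for the main fit and for some counts with the trend on merged exon length removed. Counts under the other alternatives stand without such a share and cannot be set against it. Of 691 values of single genes, 620 kept direction and side of the threshold, 24 no longer passed, 28 newly passed and 19 reversed. With the trend on merged exon length removed, the median log2 change of the members was -0.10 in VHLΔPT, 0.14 in con/STZ and 0.10 in VHLΔPT/STZ, each against con, and 0.0467 for the interaction; in con/STZ 0 members were lower and 8 higher. With the trend on coding length removed, which was chosen after seeing the data, the medians were -0.13 in VHLΔPT, 0.13 in con/STZ and 0.0665 for the interaction, with 0 lower and 9 higher in con/STZ. The cause was not tested.

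Deviations from the group means correlated between -0.109 and 0.273 in same-numbered libraries, and 4 of 12 pairs were over 0.1. In a group of 2 libraries these deviations mirror each other, so the pairs repeat each other's values. The correlations therefore cannot decide whether the replicate numbers pair the libraries. With the replicate block the medians were -0.25 in VHLΔPT, -0.05 in con/STZ and 0.04 in VHLΔPT/STZ, and 3 members were lower in con/STZ. With the replicate block and the length correction together they were -0.0529, 0.19 and 0.16 in the same order, and -0.0136 for the interaction, with 1 lower and 10 higher in con/STZ.

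Leaving out 1 library at a time, the count of lower members ran from 0 to 6 in VHLΔPT and 0 to 5 in con/STZ, and that of higher members from 0 to 1 in con/STZ, 0 to 1 in VHLΔPT/STZ against con, 0 to 2 in VHLΔPT/STZ against VHLΔPT and 0 to 7 for the interaction. The medians ran from -0.45 to -0.25 in VHLΔPT, -0.26 to -0.05 in con/STZ, -0.22 to 0.10 in VHLΔPT/STZ against con, -0.0892 to 0.26 against con/STZ, 0.14 to 0.50 against VHLΔPT, and 0.28 to 0.64 for the interaction. Without con 3, con/STZ 2 and VHLΔPT/STZ 2 together, chosen after seeing the data, no member was lower in con/STZ (0) and the medians were 0.0084 in con/STZ, -0.10 in VHLΔPT/STZ against con/STZ, 0.14 against VHLΔPT and 0.14 for the interaction. Library weights gave 16 lower in VHLΔPT, and 8 lower and 1 higher in con/STZ. A mean of at least 50 gave 6 lower in con/STZ, a fold over 1.5 gave 0, and fitting only the groups compared gave 1 higher. At an unadjusted p under 0.05, 46 were lower in VHLΔPT, 12 lower and 2 higher in con/STZ, 2 lower in VHLΔPT/STZ, 20 higher against VHLΔPT and 31 higher for the interaction.

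Among single members, reversals came mostly with the length corrections. With that on merged exons, Ndufs1 was at -0.12 in VHLΔPT and -0.0182 in con/STZ, Ndufa1 at 0.50 in con/STZ and 0.26 in VHLΔPT/STZ, Ndufa2 at 0.21 in con/STZ, and Ndufb3 at -0.0004 for the interaction. With the replicate block added, Ndufs1 was at -0.0634 in VHLΔPT, Ndufa1 at 0.60 in con/STZ and 0.36 in VHLΔPT/STZ, Ndufa2 at 0.26 in con/STZ and Ndufa7 at 0.0164 in VHLΔPT/STZ. With that on coding length, Ndufs1 was at -0.0327 in VHLΔPT, Ndufa1 at 0.0547 in con/STZ and 0.0057 in VHLΔPT/STZ, and Atp5g2 at 0.0103 in con/STZ and 0.0007 in VHLΔPT/STZ. Cox8b in VHLΔPT was at -0.36 with library weights and between -1.04 and 1.27 when 1 library was left out. Ndufc2 in VHLΔPT/STZ against con/STZ was at -0.0934 without the 3 libraries named above.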
